A study of Mus musculus with 40 samples.

Results

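Invasive mammary tumours of WAP-TNP8 mice were compared with mammary glands of the same transgenic line taken 4 and 5 months after activation of the transgene, which are the times at which the study also took its tumours. The 5 arrays labelled as invasive breast tumours and the 10 arrays labelled 4M and 5M (5 each) were chosen by their labels, and are 15 of the 40 arrays of the series. Mice of this line carry the early region of the virus SV40 behind the promoter of the whey acidic protein gene Wap, which is active in secretory mammary epithelium, so that a lactation switches on the T and t antigens there. Every tumour and every gland compared here therefore carried the transgene and came after a lactation. The remaining 25 arrays, which enter here only as background levels, were wild type BalbC glands, glands of the line before activation, and glands taken at 1, 2 and 3 months (5 arrays each). RNA came, according to the methods, from a frozen part of each dissected mammary gland, and the line develops ductal carcinoma in situ. The methods describe no separation of cell types before RNA preparation. The labels give no age and do not say whether a tumour came from the same mouse as a gland. Nothing in them ties replicate numbers to animals across groups, and p-values measure the spread between these samples.

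Large T antigen is known to bind the retinoblastoma proteins and p53, and cells that express it enter the cell cycle. Carcinoma in situ lies inside the duct, behind a layer of contractile myoepithelial cells and a basement membrane, and invasion means that epithelial cells are found beyond both. Fibrillar collagens, tenascin and matrix metalloproteinases of the stroma are known to change in many invasive carcinomas. A tumour nodule also displaces the fat that makes up most of the mouse mammary gland. The comparison asks what the invasive tumours show in addition to glands of the same line and of matching time.

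Values are log2 intensities after GCRMA, one array per sample, and a difference is tumour mean minus gland mean on that scale with its standard error from limma. "Called" means a change of 5-fold or more with an adjusted p no higher than 0.01, and "passed" an adjusted p no higher than 0.05. Each gene was read from its brightest probe set. Of 45037 probe sets tested, 462 were called higher in tumours (1.03 percent) and 1211 lower (2.69 percent), and 14.4 percent passed higher and 10.8 percent lower. Over 18193 genes, 164 were called higher (0.901 percent) and 767 lower (4.22 percent), 14.9 percent passed higher and 16.2 percent lower, and tumours and glands did not overlap in 5.07 percent (tumours above) and 7.83 percent (tumours below). The median difference over all genes was -0.01. Counts of list members given below are to be read beside these shares over all genes. Of the 45037 probe sets, 15054 had an unadjusted p under 0.05 in limma. In the methods' t-test 3255 passed higher and 3278 lower, against 6478 and 4868 in limma. Between 5M and 4M, which were pooled, no probe set was called in limma or in the methods' t-test, none passed higher at 5M (0 percent) and 1 lower (0.00222 percent), and 2728 had an unadjusted p under 0.05. Of the probe sets called higher, 48.9 percent had a gland mean below 5, close to the floor of the scale (52.2 percent of all probe sets did), and of those called lower 43.6 percent had a tumour mean below 5, so folds for these depend on that floor.

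Some arrays stood apart. Poly-A spike-in RNA read low on 4 gland arrays (5M replicates 2 to 5) and high on the other 6 and on every tumour. Markers of B cells were high in 3 glands (4M replicate 2, 5M replicates 1 and 5) and of skeletal muscle in 3 others (4M replicate 5, 5M replicates 2 and 4), and in no tumour. Markers of cornified epidermis were high in 4M replicate 1. Array medians did not separate the groups (4.41 to 4.53 in tumours, 4.34 to 4.59 in glands), nor did the difference between 3' and 5' probe sets of Gapdh (2.23 to 3.41 against 1.79 to 4.85) or of Actb (1.84 to 2.58 against 1.91 to 5.4). The highest gland values of both, and of the spike-in mean (13.8), came from 4M replicate 2, and the other glands reached 3.52, 2.67 and 9.62. Without the 4 low spike-in glands 467 probe sets were called higher and 1047 lower, and with the spike-in signal as a block 529 and 1170. Without the glands high in B cell markers these counts were 517 and 1276, and without those high in muscle markers 391 and 1116. Tumour replicate 3 departed least from the glands: over the probe sets called lower its median difference from the gland mean was -2.51, against -3.23 to -3.97 in the other 4 tumours, and over those called higher 2.48 against 2.76 to 3.22. Actb, the beta-actin gene, differed by 0.32 ± 0.14 (adjusted p = 0.111).

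The largest gain was in Mmp13, which encodes collagenase 3, a secreted enzyme that cleaves fibrillar collagen. Its tumour values were 8.55, 9.21, 12.36, 13.80 and 7.76 in replicates 1 to 5, and its gland values 2.76 to 5.74 (median 2.95). All 5 tumours lay above every gland, and 9 of 10 glands lay near the level of the 10 controls without an active transgene (mean 2.89), the exception being 5M replicate 2. The difference was 7.06 ± 0.87 (adjusted p = 4.15e-05). Of the 18 measured matrix metalloproteinases, ADAMTS proteases and their inhibitors, 3 passed higher and 6 lower (14.9 and 16.2 percent of all genes did), with a median difference of -0.38. Tumours and glands did not overlap for 8 of these members (3 with tumours above and 5 below, against 5.07 and 7.83 percent of all genes). In bulk tissue, fewer cells of a type and less RNA per cell cannot be told apart, here and in all results that follow.

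The stretch before the start of Mmp13 is shown because it holds the AP-1 element known from collagenase promoters. It covers chr9:7272414-7272513 (plus strand, GRCm38.p6, sequence from RefSeq), the 100 bases before the annotated start, with the AP-1 motif in capitals.

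Mmp13: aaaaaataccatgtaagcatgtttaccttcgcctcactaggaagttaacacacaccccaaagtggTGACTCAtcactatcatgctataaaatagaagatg

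AP-1 is the factor made by Fos and Jun proteins, and its motif was searched as TGANTCA, which reads the same on both strands, in the 250 bases before each start. The match begins 35 bases before the start. The motif was present in 5 of 13 members of the protease list with a promoter in the table (38.5 percent), in 6.67 percent of all 14367 genes with one, and in 7.87 percent of the genes called higher. The other 4 members with a match did not pass: the stromelysin genes Mmp3 (-1.16 ± 0.49, adjusted p = 0.111) and Mmp10 (1.44 ± 0.85, adjusted p = 0.281), the macrophage elastase gene Mmp12 (1.31 ± 0.88, adjusted p = 0.37) and the matrilysin gene Mmp7 (-0.01 ± 0.02, adjusted p = 0.794). Mmp10 read 2.12, 2.24, 2.56, 8.69 and 2.09, high in tumour replicate 4 and at the floor in the others. Without tumour replicate 3 the difference of Mmp3 was -1.62 and passed (adjusted p = 0.0138; 0.0138 to 0.325 over the alternatives).

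The largest loss was in Timp4, an inhibitor of these proteases that is strong in fat. It read 1.91, 2.43, 4.44, 1.72 and 1.98 in the tumours and 8.43 to 11.06 (median 9.94) in the glands, with no overlap, and the difference was -7.51 ± 0.47 (adjusted p = 2.63e-07). Its dimmer probe set differed by -0.74 (adjusted p = 0.018), so the 2 probe sets share a direction and not a size. The family did not move one way. Timp1, the inhibitor gene that growth factors and cytokines induce, was at 10.60, 10.80, 10.50, 11.63 and 10.19 against 7.93 to 9.24 (median 8.62) in glands, higher in every tumour than in any gland (2.17 ± 0.27, adjusted p = 4.89e-05), while Timp2 fell by 1.81 ± 0.24 (adjusted p = 8.9e-05).

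Adamts4, an aggrecanase gene, read 12.13, 12.29, 11.68, 12.21 and 12.15 in tumours and 7.96 to 10.39 (median 8.99) in glands, without overlap (3.09 ± 0.30, adjusted p = 6.11e-06). Its relative Adamts5, also an aggrecanase, moved the other way, from 10.30 to 12.04 in glands to 5.69 to 8.22 in tumours (-3.67 ± 0.39, adjusted p = 1.39e-05). Mmp2, the gelatinase gene of stromal fibroblasts, and Mmp19 were lower (-1.79 ± 0.35 and -1.99 ± 0.17). Mmp14, which encodes the membrane protease that activates gelatinase, differed by -0.19 ± 0.28 (adjusted p = 0.768), with a 95 percent interval of -0.78 to 0.40.

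**Figure D1:**
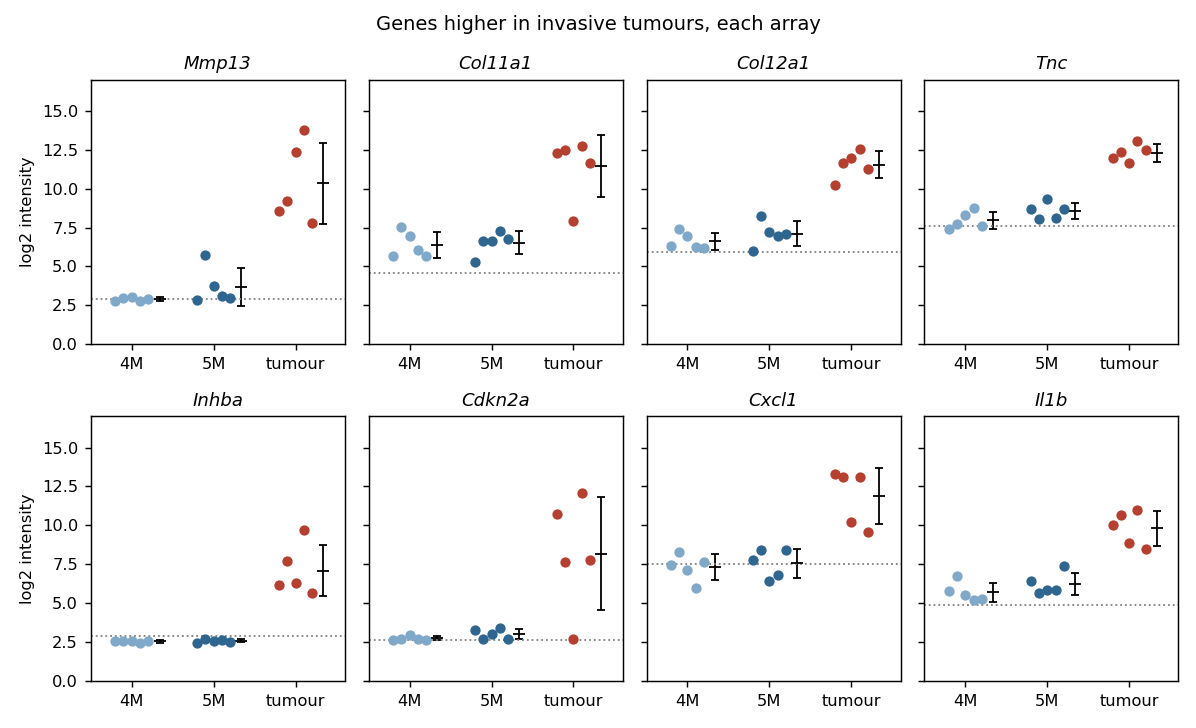
Log2 intensity of 8 genes higher in tumours, one point per array (4M and 5M glands in blue, invasive tumours in red; 5 arrays each, bars mean ± SD), with the mean of the 10 controls as a dotted line. Mmp13, Inhba, Tnc, Col12a1 and Il1b of every tumour lie above every gland, and tumour replicate 3 lies at the gland level for Cdkn2a.

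Several matrix genes rose together with Mmp13. Col12a1, a collagen that links fibrils, read 10.21, 11.62, 11.98, 12.56 and 11.28 in tumours and 6.01 to 8.25 (median 6.95) in glands, and every tumour exceeded every gland (4.67 ± 0.40, adjusted p = 2.52e-06). Col11a1, a minor fibrillar collagen best known from cartilage and reactive tumour stroma, read 12.31, 12.50, 7.94, 12.76 and 11.67 against 5.31 to 7.56 (median 6.61). Replicate 3 was the lowest tumour and lay just above the highest gland (4.99 ± 0.67, adjusted p = 8.81e-05).

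Tnc encodes tenascin C, a glycoprotein of wounds and tumour stroma. Its tumour values of 11.96, 12.34, 11.62, 13.08 and 12.46 all lay above the gland values of 7.43 to 9.33 (median 8.21; difference 4.02 ± 0.31, adjusted p = 1.12e-06). Col8a2, a short-chain collagen, was near the floor in all glands (2.63 to 3.12) and at 6.03 to 8.81 in tumours (4.71 ± 0.36). Col25a1, a membrane-bound collagen, rose by 4.24 ± 0.56, and C1qtnf3, a secreted protein with a collagen-like domain, by 5.74 ± 0.76.

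Inhba encodes the subunit of activin A, a ligand of the TGF-beta family. It was flat in glands at 2.41 to 2.72 and read 6.17, 7.68, 6.27, 9.70 and 5.63 in tumours, all above the glands (4.53 ± 0.49, adjusted p = 1.41e-05). The 17 measured genes of the reactive stroma list, which holds Tnc, Inhba, Col11a1 and Col12a1, had 8 members higher and 4 lower with a median of 0.64. The lower ones included the fibroblast activation gene Fap, at 8.23 to 10.22 in tumours and 11.01 to 12.23 in glands (-2.37 ± 0.28, adjusted p = 3.21e-05).

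Many genes of resting fibroblasts were lower. Among 24 measured genes of fibroblasts and interstitial matrix 13 passed lower and 2 higher, with a median of -0.71. Genes of small proteoglycans and fibril-associated proteins were among the lower ones. Ogn (osteoglycin) was at 5.32, 5.50, 7.02, 5.99 and 7.26 in tumours and 11.21 to 12.54 (median 11.91) in glands (difference -5.73 ± 0.33, adjusted p = 1.54e-07), Dpt (dermatopontin) differed by -4.30 ± 0.24 and Dcn (decorin) by -3.31 ± 0.25, and none of the 3 overlapped between the groups. Col1a2, a chain of the main fibrillar collagen, differed by -0.20 ± 0.25 (adjusted p = 0.706; 95 percent interval -0.73 to 0.32), and Fbln2 (fibulin 2) rose by 1.61 ± 0.41 (adjusted p = 0.00904; 0.00042 to 0.147 over the alternatives, above 0.05 in 4 of them).

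The basement membrane list had 5 of 17 members higher and 3 lower (median -0.28). Lama2, the laminin chain of stroma and muscle, fell by 4.07 ± 0.47 and the linker gene Nid1 by 2.22 ± 0.16 (adjusted p = 8.58e-07). Lamb3, a chain of the epithelial laminin, was higher by 1.36 ± 0.27 (adjusted p = 0.00163; 0.0603 against 5M alone, 6.28e-05 to 0.0603 over the alternatives), and so was its receptor subunit Itgb4, at 8.88, 7.97, 8.03, 9.49 and 8.89 against 5.99 to 7.59 (median 7.08; difference 1.71 ± 0.31, adjusted p = 0.000839). Itgb4 was the 1 member of the basal cell list that rose.

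Mitosis and DNA replication were the 2 lists of 39 in which every measured member passed higher. All 35 measured mitosis genes passed higher (median 2.22, 33 with no overlap). So did all 29 DNA replication genes (median 1.5, 20 with no overlap). Over all genes 14.9 percent passed higher, and in 5.07 percent every tumour lay above every gland. Of 15 DNA repair genes 14 passed higher (median 1.87) and none lower. Mki67, which encodes the proliferation antigen Ki-67, averaged 8.46 in controls, 12.70 at 3M, 12.57 at 4M, 13.23 at 5M and 14.55 in tumours.

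Tumour values of Mki67 were 15.05, 14.60, 14.79, 14.30 and 14.04 and gland values 12.03 to 13.42 (median 13.13), without overlap (1.65 ± 0.25, adjusted p = 0.000215). Top2a, the topoisomerase that untangles chromosomes before division, read 13.79, 12.92, 13.04, 13.34 and 12.99 against 10.42 to 11.83 (median 11.21; difference 2.04 ± 0.23, adjusted p = 2.1e-05). For Bub1, a spindle checkpoint kinase gene, the values were 11.32, 11.12, 11.02, 10.73 and 11.54 and 7.11 to 9.19 (median 8.48; difference 2.87 ± 0.32, adjusted p = 1.89e-05). Every tumour exceeded every gland for all 3 genes.

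Plk1, a mitotic kinase gene, rose by 2.85 ± 0.32, the kinetochore gene Cenpf by 2.30 ± 0.23 and Cdk1, the kinase that starts mitosis, by 2.17 ± 0.29. Among replication genes the thymidylate synthase gene Tyms had the largest gain, from 3.30 to 5.07 in glands to 7.46 to 8.73 in tumours (3.77 ± 0.32, adjusted p = 2.26e-06). The helicase gene Mcm7 rose by 1.66 ± 0.15 and the loading factor gene Mcm10 by 2.44 ± 0.23, and of the repair genes Rad51ap1 rose by 1.87 ± 0.20 and the helicase gene Blm by 2.18 ± 0.26. The gain depended on the month compared: the mitosis median was 2.55 against 4M alone and 1.83 against 5M alone, and the replication median 1.73 and 1.26. The 5M glands are also those that lack spike-in signal except replicate 1, and against the 6 glands with that signal the mitosis median was 2.53. Month and spike-in signal coincide in 9 of the 10 glands, and their parts in these values cannot be told apart.

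The stretches before Top2a and Mki67 are shown because both hold the paired elements known from promoters of mitotic genes. Capitals mark the CCAAT box (CCAAT, or ATTGG on the other strand), which the factor NF-Y binds, and the cell cycle genes homology region, or CHR (TTTGAA, or TTCAAA), which the MuvB complex binds. The Top2a stretch is chr11:99024190-99024309 and the Mki67 stretch chr7:135716460-135716579, both read from the minus strand of GRCm38.p6 (RefSeq), and they cover the 120 to 1 and the 200 to 81 bases before the annotated start.

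Top2a: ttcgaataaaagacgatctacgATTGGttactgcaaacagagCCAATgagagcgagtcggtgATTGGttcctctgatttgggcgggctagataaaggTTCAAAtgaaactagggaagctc

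Mki67: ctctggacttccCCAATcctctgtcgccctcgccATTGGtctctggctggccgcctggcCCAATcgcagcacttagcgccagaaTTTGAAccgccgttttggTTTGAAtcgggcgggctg

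In the 250 bases before the start, on either strand, a CHR was present in 12 of the 29 mitosis genes with a promoter in the table (41.4 percent) and in 14.1 percent of all genes. A CCAAT box was present in 21 of the 29 (72.4 percent), against 39.4 percent of all genes, and 11 held both. How many of all genes held both was not counted. Among 25 replication genes with a promoter, 4 held a CHR (16 percent) and 16 a CCAAT box (64 percent). The shares among genes called higher as a whole were 14.2 and 45.7 percent. The E2F motif TTCCCGCC (or GGCGGGAA) was present in 2 of 25 replication genes and in 3.23 percent of all genes. None of these motifs shares letters with another in the stretches printed.

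Of 28 regulators of the Rb and E2F pathway, 18 passed higher and 4 lower (median 1.12). Foxm1, the factor that drives mitotic genes, read 9.45, 8.73, 8.76, 9.35 and 9.5 in tumours and 4.91 to 7.42 (median 6.14) in glands, with no overlap (3.14 ± 0.40, adjusted p = 5.94e-05), and 2 of its dimmer probe sets gave 2.99 and 3.27. E2f7, a repressor of the family, rose by 2.48 ± 0.25, E2f3 by 1.01 ± 0.10 and the cyclin gene Ccne2 by 2.33 ± 0.29. The lower ones included the cyclin gene Ccnd2 (-2.81 ± 0.38) and the inhibitor gene Cdkn1c (-2.85 ± 0.35, adjusted p = 4.76e-05).

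Cdkn2a, the locus of the inhibitors p16 and p19Arf that act on Rb and p53, was called and also differed among tumours. It read 10.75, 7.63, 2.66, 12.10 and 7.75, against 2.65 to 3.38 (median 2.72) in glands. Replicates 1, 2, 4 and 5 lay far above the glands and replicate 3 lay among them (5.31 ± 1.08, adjusted p = 0.00203; 0.135 in the methods' t-test and 0.0583 against 5M alone, 2.45e-07 to 0.135 over the alternatives). The p53 target list had 2 of 14 members higher and 4 lower, with a median of -0.04. Cdkn1a (p21) rose by 2.02 ± 0.25 (adjusted p = 4.7e-05) and Mdm2 by 0.97 ± 0.15 (0.0642 in the methods' t-test, 0.00015 to 0.0642 over the alternatives), while Ccng1 fell by 1.14 ± 0.26 and Sesn1 by 0.94 ± 0.16.

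Foxm1 and the 5 genes given next are among those the study proposed as markers of carcinoma in situ with these arrays in hand, so their direction is not independent evidence. Rrm2, a ribonucleotide reductase gene, differed by 1.35 ± 0.28, the spindle gene Nusap1 by 1.72 ± 0.26, the nuclease gene Exo1 by 2.10 ± 0.42 and Depdc1a by 2.22 ± 0.38 (adjusted p = 0.000614), and all 4 passed. Muc1, a mucin of the luminal surface, differed by 0.41 ± 0.32 (adjusted p = 0.472; 95 percent interval -0.29 to 1.10), with tumours at 10.48 to 12.50 and glands at 10.37 to 11.86.

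Marker genes of luminal epithelium read high in tumours and in glands, and the means of this list overlapped (11 to 11.77 and 10.53 to 11.79). Of 20 genes of luminal and epithelial identity, 9 passed higher and 2 lower (median 0.71), against 14.9 and 16.2 percent of all genes. In 1 of the 20 every tumour lay above every gland, as in 5.07 percent of all genes. Epcam, an epithelial adhesion gene, read 15.67, 15.69, 15.98, 15.64 and 15.27 in tumours and 14.48 to 15.29 (median 14.73) in glands (difference 0.86 ± 0.14, adjusted p = 0.000308). Esrp1, an epithelial splicing factor gene, rose by 1.16 ± 0.24, Krt8 differed by 0.15 ± 0.22 (adjusted p = 0.771) and Krt19 fell by 1.42 ± 0.30 (adjusted p = 0.00279; 5.11e-05 to 0.118 over the alternatives, above 0.05 in the methods' t-test and against 5M alone). Factors known to drive the epithelial-mesenchymal transition were lower: 7 of 12 passed lower and 1 higher (median -1.74), with Zeb2 at -2.49 ± 0.22, Zeb1 at -2.22 ± 0.21, Snai2 at -2.25 ± 0.24 and Prrx1 at -2.48 ± 0.20. Those genes are also expressed by fibroblasts, whose list had 13 of 24 members lower (summed level 16.15 to 17.28 in tumours and 17.02 to 18.03 in glands), and the part of fibroblasts in these values was not tested.

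Several genes that define the hormone-sensing luminal cell were lower. Pgr, the progesterone receptor gene, read 2.32, 2.84, 3.51, 2.30 and 4.45 in tumours and 7.44 to 10.48 (median 8.96) in glands (difference -6.05 ± 0.50, adjusted p = 1.89e-06), without overlap. Esr1, the estrogen receptor gene, was at 8.44, 7.11, 9.74, 6.64 and 8.47 against 10.41 to 12.46 (median 11.82; difference -3.58 ± 0.47, adjusted p = 7.1e-05), and its second probe set gave -3.88. Tbx3, a factor of the same lineage, fell by 3.33 ± 0.31. Of 11 measured genes of the list 6 passed lower and none higher, with a median of -2.04 (16.2 percent of all genes passed lower). In the methods' t-test 4 of the 11 passed (over all 45037 probe sets 3255 passed higher and 3278 lower in that test). The other 5 members did not pass in limma, and the highest differed by 1.31. The summed level of the list overlapped (14.16 to 14.88 in tumours, 14.48 to 15.12 in glands).

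Milk genes were lower in the tumours than in the glands, but unevenly. Of 21 measured genes 16 passed lower and none higher by their brightest probe sets (median -2.45), and 4 of the 21 passed in the methods' t-test. Over all 45037 probe sets 3255 passed higher and 3278 lower in that test. Csn2, the beta-casein gene, averaged 3.20 in controls and read 12.46, 10.94, 16.22, 9.33 and 12.83 in tumours against 15.59 to 16.37 (median 15.87) in glands. Tumour replicate 3 lay inside the gland range and the other 4 lay below it (-3.56 ± 0.76, adjusted p = 0.00303; 0.0582 against 4M alone and 0.0647 against 5M alone, 1.46e-05 to 0.151 over the alternatives).

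Csn1s2b, a minor casein gene, fell from 7.73 to 10.13 to 2.95 to 4.78 with no overlap (-5.10 ± 0.42, adjusted p = 1.7e-06), and Btn1a1, which encodes the butyrophilin of the milk fat globule, by 4.61 ± 0.72 (adjusted p 2.82e-07 to 0.0506 over the alternatives). Csn3, the kappa-casein gene, read 15.70 to 16.18 in tumours and 15.32 to 16.01 in glands, and differed by 0.19 ± 0.11 (adjusted p = 0.277; 95 percent interval -0.05 to 0.43) where controls averaged 11.87. Its dimmer probe set, at 9.38 in tumours and 7.01 in glands, passed higher (2.37 ± 0.53, adjusted p = 0.00404), so the probe sets disagree on whether Csn3 rose. Stat5a, the factor that carries the prolactin signal, fell by 1.97 ± 0.34 (adjusted p 0.000103 to 0.0639 over the alternatives, above 0.05 in the methods' t-test, as for Btn1a1). Wap, whose promoter drives the transgene, read 4.73, 4.70, 8.27, 6.07 and 6.96 against 6.89 to 11.91 (median 8.47; difference -2.65 ± 0.85, adjusted p = 0.0337). That difference no longer passed with any of 4 single arrays left out (tumour replicate 1, 2 or 4, or 4M replicate 5; adjusted p from 0.0503 to 0.0989, and 0.00793 to 0.133 over all alternatives), and tumour replicates 1 and 2 were at the level of controls (4.58). The level of the T antigen itself was not analysed here.

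Genes of the contractile basal layer fell. Cnn1, the calponin gene of smooth muscle and myoepithelium, read 2.93, 4.28, 3.16, 3.16 and 3.16 in tumours and 7.69 to 9.65 (median 9.06) in glands (difference -5.65 ± 0.28, adjusted p = 5.9e-08). Oxtr, the oxytocin receptor gene that lets these cells eject milk, was at 5.63, 5.47, 7.27, 4.01 and 6.98 against 10.47 to 11.84 (median 11.19; difference -5.29 ± 0.43, adjusted p = 1.84e-06). For both, the highest tumour lay far below the lowest gland.

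Trp63, which encodes the p63 factor of basal cells, fell by 2.95 ± 0.27 (adjusted p = 4.07e-06), the myosin gene Myh11 by 4.33 ± 0.27 and the smooth muscle actin gene Acta2 by 2.25 ± 0.17. Of 16 measured basal and myoepithelial genes 10 passed lower and 1 higher (median -2.03), and tumours lay below all glands for 9. Over all genes these shares were 16.2, 14.9 and 7.83 percent. Smooth muscle of vessels also expresses Acta2, Myh11 and Cnn1. The pericyte list had 3 of 7 members lower, such as Rgs5 (-1.40 ± 0.20), and its summed level was 11.61 to 12.56 in tumours and 12.95 to 13.56 in glands. The part of vessel wall cells in the loss was not tested.

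**Figure D2:**
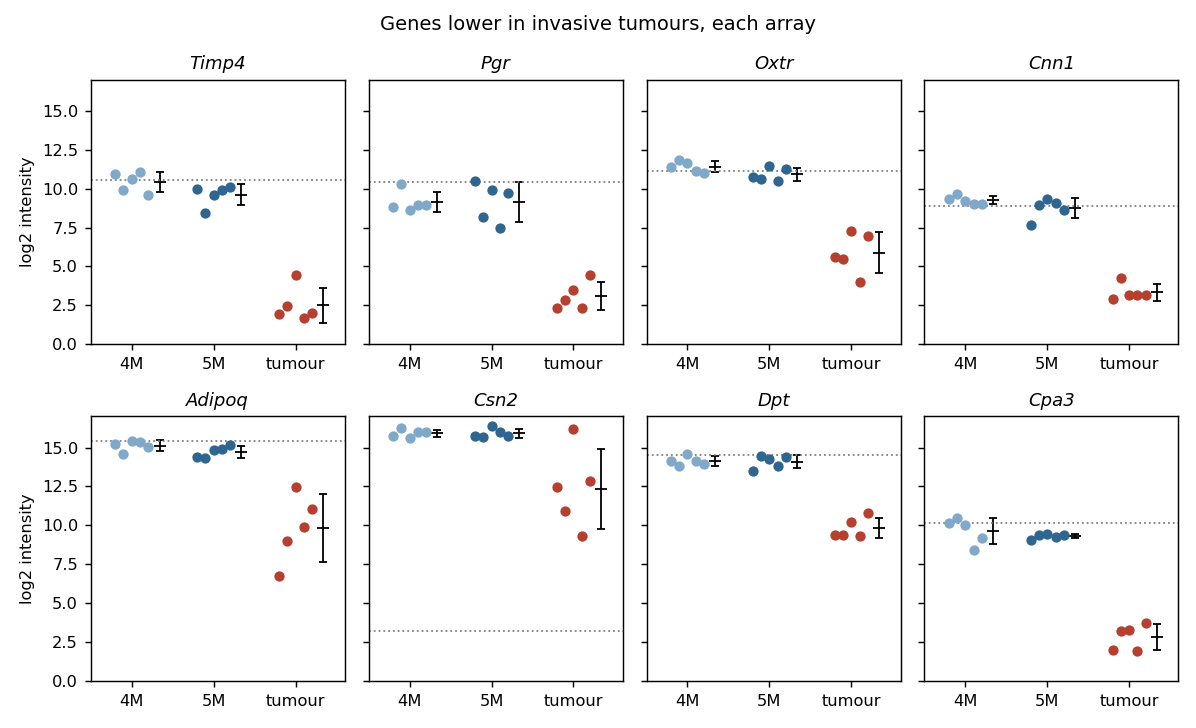
Log2 intensity of 8 genes lower in tumours, one point per array (4M and 5M glands in blue, invasive tumours in red; 5 arrays each, bars mean ± SD), with the mean of the 10 controls as a dotted line. Tumours lie below all glands for every gene but Csn2, where tumour replicate 3 reads 16.22 and glands reach 16.37.

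Fat genes fell. All 18 measured adipocyte genes passed lower (16.2 percent of all genes did), with a median of -4.85. In the methods' t-test 12 of the 18 passed. Tumours lay below every gland for 17 of them, against 7.83 percent of all genes. The adiponectin gene Adipoq read 6.75, 8.99, 12.50, 9.92 and 11.04 in tumours and 14.33 to 15.42 (median 14.96) in glands (difference -5.08 ± 0.66, adjusted p = 6.57e-05). Lep, the leptin gene, was at 2.47, 3.69, 7.44, 2.67 and 6.62 against 9.67 to 12.39 (median 11.59; difference -6.80 ± 0.78, adjusted p = 2.37e-05). Tumour replicates 3 and 5 were the highest for both genes and replicate 1 the lowest.

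The lipases Lipe and Pnpla2 fell by 5.76 ± 0.53 and 3.73 ± 0.34, and the insulin-regulated glucose transporter gene Slc2a4 by 5.09 ± 0.46 (adjusted p = 3.85e-06). Fatty acid synthesis genes followed, with 11 of 14 lower and none higher (median -3.10), among them Fasn (-3.27 ± 0.36) and Acaca (-3.36 ± 0.37). Klb, the co-receptor of fibroblast growth factor 21, fell by 6.70 ± 0.73 and the carboxylesterase gene Ces1f by 7.01 ± 0.75. The aldehyde dehydrogenase genes Aldh1a1 and Aldh1a7 fell by 6.61 ± 0.65 and 6.81 ± 0.87, and the sulfotransferase gene Sult1a1 by 6.67 ± 0.57. Inmt, a methyltransferase gene, fell by 6.63 ± 0.49 and the membrane protein gene Tmem182 by 6.70 ± 0.81. These 7, Lep and Timp4 are among the 15 largest losses, and tumour replicate 3 was the highest tumour for Klb (6.37, glands from 7.91). Cidea, a gene of brown fat, fell by 5.58 ± 1.14 (adjusted p = 0.00218) in a list that had 3 of 8 members lower. That list was uneven among glands (summed level 9.56 to 15.72), as was the skeletal muscle list (8.44 to 18.90 in glands and 7.31 to 10.96 in tumours, 1 of 14 lower). The muscle median was -3.99, but -5.41 against 5M alone and -1.04 without the 3 glands high in muscle markers.

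Endothelial genes were lower throughout. All 16 passed lower (median -1.78), with 9 not overlapping, against 16.2 and 7.83 percent of all genes. Tek, the angiopoietin receptor gene, read 6.59, 6.87, 8.26, 7.17 and 7.53 in tumours and 9.6 to 11.36 (median 10.84) in glands (difference -3.38 ± 0.30, adjusted p = 3.27e-06). Vwf, the von Willebrand factor gene, fell by 3.62 ± 0.36, the factor gene Erg by 2.77 ± 0.23 and Egfl7 by 1.46 ± 0.11. Of 5 lymphatic genes 2 passed lower, Lyve1 (-5.02 ± 0.55) and Reln (-4.09 ± 0.34). Alas2, a heme synthesis gene of red cell precursors, was at 2.78 to 6.05 against 7.89 to 11.996 (-6.23 ± 0.72).

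**Figure D3:**
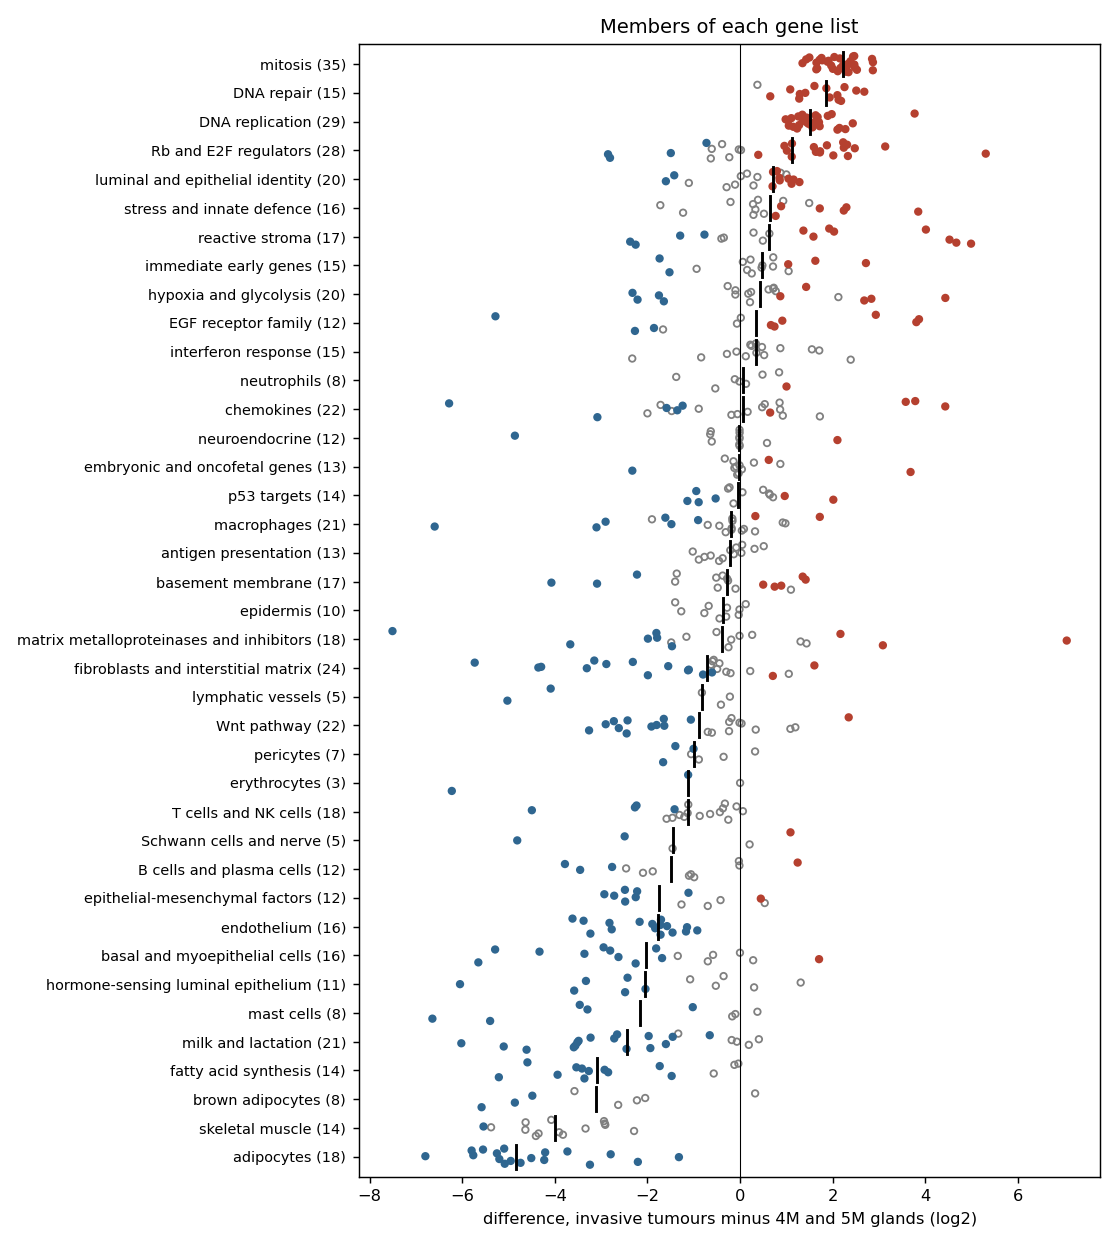
Difference between invasive tumours and 4M and 5M glands (log2) for each measured member of 39 gene lists (number measured in brackets); filled points passed an adjusted p of 0.05 (red higher, blue lower), open points did not, and the bar is the list's median. Mitosis has the highest median (2.22) and adipocytes the lowest (-4.85).

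Genes of mast cell granules were near the floor in tumours. Cpa3, the mast cell carboxypeptidase gene, read 2.01, 3.21, 3.28, 1.93 and 3.74 in tumours and 8.38 to 10.48 (median 9.41) in glands (difference -6.64 ± 0.36, adjusted p = 9.65e-08). The chymase gene Cma1 was at 3.23, 4.46, 3.19, 3.19 and 4.43 against 8.17 to 9.76 (median 9.01; difference -5.40 ± 0.28, adjusted p = 7.76e-08). Tpsb2 and Mcpt4, further mast cell protease genes, fell by 3.46 ± 0.32 and 3.29 ± 0.33. Tumours and glands did not overlap for these 4 of the 8 measured members, and 5 of the 8 passed lower. Over all genes 7.83 percent did not overlap with tumours below, and 16.2 percent passed lower. Kit, which mast cells share with luminal progenitors, differed by 0.38 ± 0.17 (adjusted p = 0.126; 0.00602 to 0.538 over the alternatives). It passed higher against 4M alone (0.54, adjusted p = 0.0322), against the glands with spike-in signal (0.59, adjusted p = 0.017) and with that signal as a block (adjusted p = 0.00602).

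Macrophage genes went in both directions, and most did not pass. Of 21 measured, 2 passed higher, 6 lower and 13 neither (median -0.18). Over all genes 14.9 percent passed higher and 16.2 percent lower. Cd209b, a lectin gene of resident macrophages, read 2.02, 2.36, 2.94, 1.79 and 4.67 in tumours and 8.21 to 12.41 (median 9.11) in glands (difference -6.60 ± 0.63, adjusted p = 5.33e-06). Cd163 and Mrc1, scavenger and mannose receptors of tissue macrophages, fell by 3.10 ± 0.38 and 1.61 ± 0.24, and Gpnmb by 2.90 ± 0.50. Msr1, another scavenger receptor, was at 10.06, 9.93, 9.96, 10.23 and 10.07 against 7.15 to 9.93 (median 8.16), higher by 1.73 ± 0.36 (adjusted p = 0.00234).

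Lymphocyte lists were lower with few members passing, 3 of 12 lower and 1 higher for B and plasma cells (median -1.49) and 4 of 18 lower for T and NK cells (-1.12). In the methods' t-test 0 of the 12 and 3 of the 18 passed, and 4 of each list had an unadjusted p under 0.05 in limma. Over all 45037 probe sets 15054 had such an unadjusted p, and 3255 passed higher and 3278 lower in the methods' t-test. Both medians moved with the glands that hold B cell markers: without those 3 arrays both were -0.20, and without 5M replicate 1 alone the B cell median was -0.89. Jchain, the joining chain gene of plasma cells, read 8.55, 10.20, 13.41, 9.2 and 12.20 in tumours and 13.53 to 14.66 (median 14.22) in glands (difference -3.45 ± 0.62, adjusted p = 0.000903; 0.0968 in the methods' t-test, 4.32e-05 to 0.0968 over the alternatives). Gzma, a granzyme gene, was at 2.19, 3.37, 5.15, 2.90 and 7.22 against 7.52 to 10.06 (median 8.50; difference -4.50 ± 0.67). Neither overlapped between the groups.

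Among secreted signals the neutrophil chemokines and interleukin 1 stood out. Cxcl1, a ligand of Cxcr2, read 13.27, 13.10, 10.22, 13.11 and 9.6 in tumours and 5.99 to 8.42 (median 7.55) in glands, every tumour above every gland (4.44 ± 0.65, adjusted p = 0.000165), and its other 2 probe sets gave 4.28 and 4.2. Its relatives Cxcl2 and Cxcl5 rose by 3.58 ± 0.75 and 3.79 ± 0.89, with overlap in both (adjusted p 7e-07 to 0.123 and 6.19e-06 to 0.139 over the alternatives, highest in the methods' t-test for Cxcl2 and against 5M alone for Cxcl5). Il1b, the interleukin 1 beta gene, was at 9.997, 10.68, 8.88, 11.002 and 8.47 against 5.21 to 7.36 (median 5.78; difference 3.85 ± 0.44, adjusted p = 2.51e-05). Cxcl15, by contrast, fell from 8.82 to 11.32 to 2.85 to 3.88 (-6.28 ± 0.42), and the eotaxin gene Ccl11 by 3.08 ± 0.52 (adjusted p = 0.0739 in the methods' t-test, 1.04e-07 to 0.0739 over the alternatives).

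The chemokine list as a whole had 4 of 22 members higher and 5 lower (median 0.06). Neutrophil marker genes had 1 of 8 higher and none lower, and their summed level overlapped (7.35 to 11.52 in tumours, 7.06 to 11.07 in glands). Of 16 stress and innate defence genes 6 passed higher and none lower (median 0.64), such as Lcn2 (1.72 ± 0.22, adjusted p = 5.5e-05), the lipocalin that binds bacterial iron carriers, and the cytokine gene Lif (2.30 ± 0.30).

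Ligands of the EGF receptor went in both directions. Tgfa read 10.66, 10.19, 9.21, 10.89 and 9.25 in tumours and 6.54 to 7.97 (median 7.002) in glands (difference 2.94 ± 0.29, adjusted p = 7.88e-06). Hbegf was flat in glands at 5.45 to 5.78 and at 10.39, 10.24, 7.52, 11.88 and 7.22 in tumours (3.87 ± 0.59, adjusted p = 0.000245). Both were above all glands in every tumour. Ereg was high in tumour replicates 1, 2 and 4 (7.81, 10.11 and 10.49) and at the gland level in replicates 3 and 5 (3.81 ± 1.10, adjusted p = 0.0196), and did not pass when replicate 1, 2 or 4 was left out (adjusted p from 0.0532 to 0.0652, and 7.47e-05 to 0.265 over all alternatives). Btc, the betacellulin gene, was lower, at 2.78, 4.63, 6.84, 5.12 and 5.21 in tumours against 6.40 to 7.74 (median 7.23) in glands (difference -2.27 ± 0.47, adjusted p = 0.00223; 1.17e-05 to 0.114 over the alternatives, highest in the methods' t-test), and tumour replicate 3 lay within the glands. Nrg4, a ligand of the related receptor ErbB4 that is made by fat, fell by 5.28 ± 0.61, and the receptor gene Egfr by 1.86 ± 0.27 (adjusted p = 0.000172). The list had 6 of 12 higher and 3 lower (median 0.34).

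Of 22 Wnt pathway genes, 11 passed lower and 1 higher (median -0.88). The ligand gene Wnt7b was the higher one (2.35 ± 0.34, adjusted p = 0.000152), and the receptor gene Fzd4 (-3.26 ± 0.25) and Axin2 (-2.45 ± 0.38), a target of the pathway that also restrains it, were among the lower. Hypoxia and glycolysis genes had 5 of 20 higher and 4 lower (median 0.43). Car9, a carbonic anhydrase induced by low oxygen, read 9.87, 9.39, 5.25, 10.22 and 5.90 against 3.24 to 4.33 (median 3.54; difference 4.44 ± 0.71, adjusted p = 0.000348), with replicates 3 and 5 just above the glands. Car12 rose by 2.84 ± 0.35, while Bnip3 and Pdk1, also known as hypoxia targets, fell by 2.21 ± 0.33 and 2.32 ± 0.40. Among 15 immediate early genes 3 rose, Ier3 among them (2.72 ± 0.43), and 2 fell (median 0.47). Hbegf, Car9 and Ier3 did not pass in the methods' t-test (adjusted p = 0.0733, 0.0759 and 0.0544), which does not share variance between probe sets.

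Some genes divided the tumours in a recurring way. Over all genes the median SD was 0.34 among 5 tumours and 0.29 among 10 glands, and the SD of 49.5 percent of genes was larger among tumours than among glands. Among the 10 genes with the largest SD over the tumours, of those with a tumour mean of at least 7, Cytl1, Comp, Stac2 and Ctnnd2 divided replicates 1, 2 and 4 from replicates 3 and 5. Cytl1, a cytokine-like gene known from cartilage, read 12.65, 12.56, 3.32, 11.67 and 3.51, above the glands (6.82 to 8.49) in the first 3 of these and below them in the other 2. Comp, a cartilage matrix gene, read 13.70, 13.49, 6.42, 13.14 and 5.43 against 5.06 to 6.49 (median 5.79), and Ctnnd2 (delta-catenin) 9.29, 10.44, 4.60, 10.28 and 4.003 against 4.11 to 6.95 (median 5.25). Comp passed (4.69 ± 1.23, adjusted p = 0.0114; 2.3e-05 to 0.223 over the alternatives, above 0.05 in 5 of them) and Ctnnd2 did not (adjusted p = 0.0831; 0.0194 without replicate 3 and 0.0103 without replicate 5). This division was read from the values themselves, in genes picked for their spread over the same 5 tumours, so no test was made of it. St8sia6 and Ecrg4, also among the 10, are not described here.

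Stac2 showed the same order (10.43, 9.40, 4.06, 10.10 and 3.56), and Car9, Hbegf and Ereg, given above, were also higher in replicates 1, 2 and 4. Spsb4, an adaptor gene of a ubiquitin ligase, read 11.32, 11.06, 4.33, 10.65 and 10.09 in tumours and 3.38 to 4.70 (median 3.85) in glands, so that replicate 3 lay within the glands and the other 4 above them (5.57 ± 0.88, adjusted p = 0.00032; 0.0736 in the methods' t-test). Hmga2, an embryonic chromatin gene, was above the glands (2.45 to 2.64) in replicates 1, 2, 4 and 5 and at their level in replicate 3 (6.48, 8.31, 2.50, 9.64 and 4.15; 3.69 ± 0.86, adjusted p = 0.00533; 4.96e-06 to 0.184 over the alternatives, above 0.05 in 4 of them). Of the remaining 4 among the 15 largest gains, Igfbp2, an insulin-like growth factor binding protein gene, read 13.83, 12.94, 9.45, 13.18 and 9.999 with replicates 3 and 5 lowest and still above the glands (4.31 ± 0.68). Ctxn1 rose by 4.98 ± 0.43, the amino acid transporter gene Slc38a3 by 4.43 ± 0.48 and the cytidine deaminase gene Cda by 4.16 ± 0.32.

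Interferon-induced genes had no member passing of 15 in limma (median 0.34; 1 at an unadjusted p under 0.05 and none in the methods' t-test), and antigen presentation genes none of 13 (median -0.21; 4 and none). Over all 45037 probe sets 15054 had an unadjusted p under 0.05 in limma. The summed level of interferon genes was 12.29 to 17.09 in tumours and 13.78 to 15 in glands. Cxcl10 read 7.46, 7.18, 11.54, 10.11 and 14.54 in tumours and 6.34 to 9.19 (median 7.42) in glands (difference 2.39 ± 1.002, adjusted p = 0.105; 0.0441 without replicate 1 and 0.0342 without replicate 2). Mx1, an antiviral GTPase gene, was at 5.18, 5.88, 11.05, 7.34 and 11.88 against 5.05 to 8.10 (median 6.45), and Cxcl9, a chemokine induced by interferon gamma, at 2.998, 3.24, 9.15, 4.17 and 11.23 against 6.63 to 10.27 (median 8.62) (adjusted p = 0.21, and 0.0172 without replicate 5). Replicates 3 and 5 were the highest tumours for all 3 genes and lay above all glands for Cxcl10 and Mx1. The same 2 tumours had the highest Ighm, the immunoglobulin mu gene (5.78, 4.91, 12.65, 3.16 and 9.35; adjusted p = 0.0962, and 0.0122 without replicate 3), and the highest Adipoq.

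**Figure D4:**
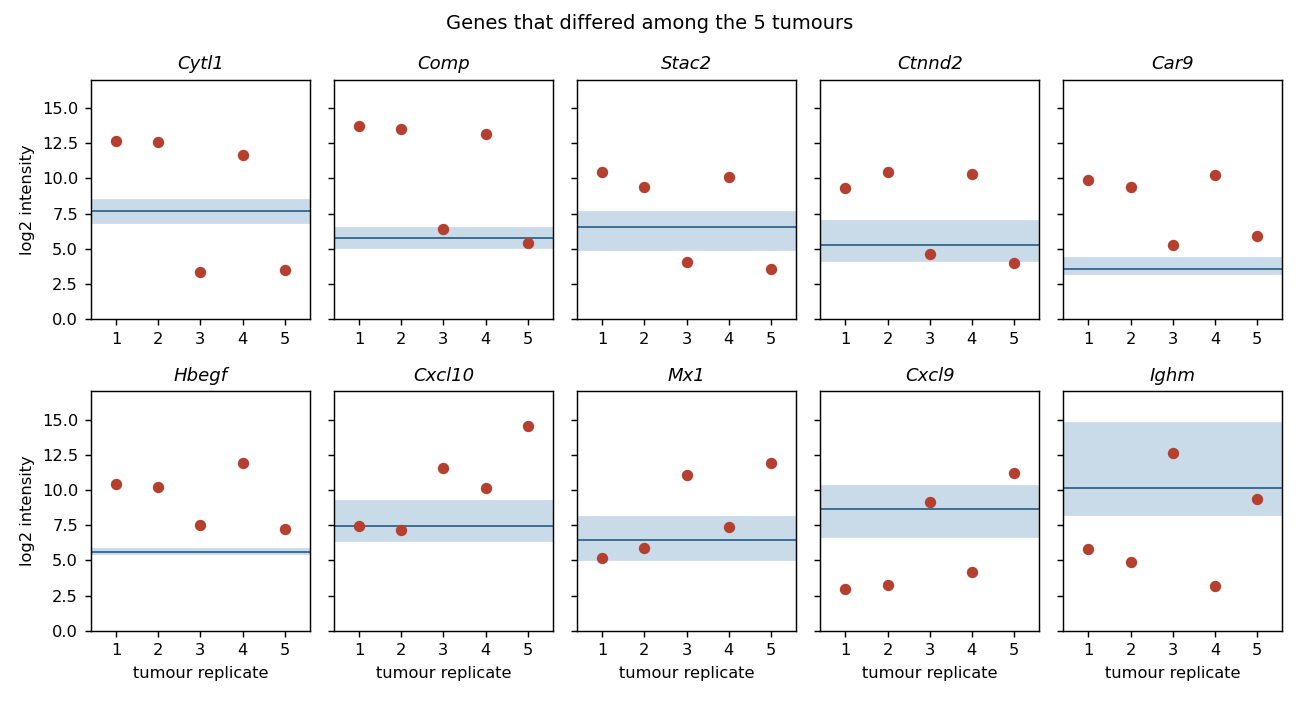
Log2 intensity of 10 genes in the 5 tumours (red, by replicate), with the range (band) and median (line) of the 10 gland arrays. Cytl1, Comp, Stac2, Ctnnd2, Car9 and Hbegf are higher in replicates 1, 2 and 4 than in 3 and 5, and Cxcl10, Mx1, Cxcl9 and Ighm are highest in replicates 3 and 5.

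**Figure D5:**
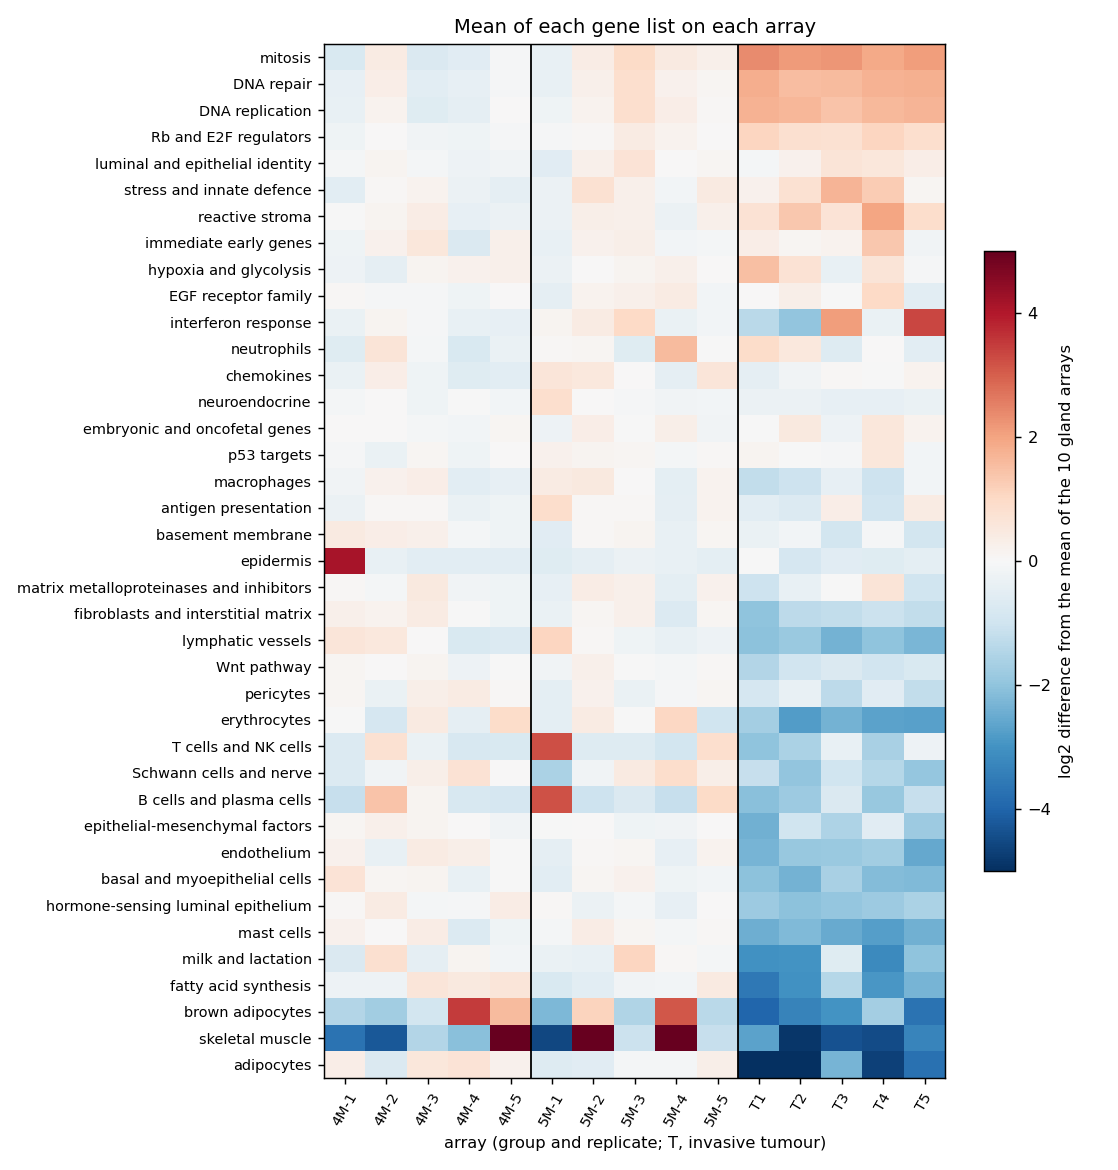
Mean of each gene list on each array as a log2 difference from the mean of the 10 gland arrays (colour, limited to 5 in either direction), with glands on the left and tumours (T) on the right. The mitosis, repair and replication lists are raised and the adipocyte list lowered in all 5 tumours, interferon genes are raised in tumour replicates 3 and 5, and single glands stand out for epidermis, muscle, brown fat and lymphocytes.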

How the data were processed

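Expression was measured on 40 Affymetrix arrays of the mouse genome, 1 per sample, of which 15 were compared. According to the methods, 50 ng of total RNA went through 2 rounds of linear amplification, and labelled cRNA was hybridized. The authors deposited intensities on a linear scale, background-corrected and normalized between arrays by GCRMA in GeneSpring GX. The deposited value table holds the log2 of these intensities minus each probe set's median over all arrays. Columns were matched to groups by the group name they carry, and after centring the largest log2 difference between both tables was 1.04e-06. The intensities were taken to log2 and tumours compared with 4M and 5M glands in limma 3.58.1 (R 4.3.3) with 2 group terms, since the methods' t-test uses each probe set's own variance and is given as an alternative. P-values were two-sided and adjusted by Benjamini-Hochberg over 45037 probe sets, after leaving out 64 control probe sets. The number of arrays limits the precision. A gene was read from its brightest probe set with 1 symbol (34945 probe sets had 1, 932 several and 9160 none). Sequences came from RefSeq promoters, found for 14367 of 18193 genes. The fit was tested on simulated data.

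Genes named were drawn from the 192 that a rule gives: the 15 largest called differences in each direction, up to 4 members of each of 39 lists with the smallest p, the study's markers, reference genes, and the 10 genes most variable among tumours. Not all of the 192 are described, 1 of the study's markers is not reported here, and other list members named were chosen after their values were seen. The members and lists were chosen with earlier results of these data known. Alternatives were other normalizations, filters, variance models, sets of arrays and dimmer probe sets.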

Additional observations from a re-analysis of the deposited data

Results flagged for a closer look

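Each group of arrays was examined for a single array whose gap to the nearest other exceeded Dixon's 95 percent critical value. Of 302 groups (151 named genes, in 5 tumours and in 10 glands), 26 had such an array, 15 among tumours and 11 among glands. A rate of about 1 in 20 would hold for independent, normally distributed groups. These groups share arrays, some genes were picked for their spread or difference, and some values lie at the floor. The 26 can therefore not be weighed against that rate. All values are log2 intensities.

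Tumour replicate 3 stood apart for 6 genes, each time towards the glands: Timp4 at 4.44 (other tumours 1.72 to 2.43), Klb at 6.37 (2.05 to 2.33), Slc2a4 at 7.38 (5.24 to 5.75), Spsb4 at 4.33 (10.09 to 11.32), Col11a1 at 7.94 (11.67 to 12.76) and Adamts4 at 11.68 (12.13 to 12.29). Replicate 1 stood apart for Adamts5 at 5.69 (7.59 to 8.22), Zeb2 at 9.16 (10.09 to 10.44), Slc38a3 at 10.59 (7.40 to 8.21) and Actb at 15.04 (15.38 to 15.50). Replicate 4 did so for Mmp10 at 8.69 (2.09 to 2.56), Kit at 13.35 (12.68 to 12.85) and Mmp19 at 3.43 (3.16 to 3.22). Replicate 2 was high for Cnn1 at 4.28 (2.93 to 3.16) and replicate 5 low for Bnip3 at 10.06 (11.36 to 11.78).

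Among glands, 5M replicate 2 was high for Mmp13 at 5.74 (other glands 2.76 to 3.75). In 5M replicate 3, Plk1 was at 9.96 (7.69 to 8.87) and Lamb3 at 10.92 (9.04 to 9.97). In 5M replicate 1, whose B cell markers were high, Cd209b was at 12.41 (8.21 to 9.72) and Mdm2 at 8.47 (7.996 to 8.23), and in 5M replicate 5 Cxcl2 was at 4.88 (2.75 to 3.14). In 4M replicate 1, whose epidermal markers were high, Ereg was at 3.95 (2.87 to 3.14) and Ctnnd2 at 6.95 (4.11 to 5.48). The other values were Egfl7 at 9.93 in 4M replicate 2 (10.28 to 10.67), Rgs5 at 12.79 in 4M replicate 4 (12.15 to 12.48) and Slc38a3 at 5.71 in 4M replicate 5 (3.13 to 4.45).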

How the results depend on the processing

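Probe sets called numbered 266 higher and 735 lower in the methods' t-test, against 462 and 1211. Against 5M alone (5 glands) they numbered 223 higher and 837 lower, and against 4M alone (also 5 glands) 463 and 1099. The cause of these differences was not tested. With 1 array left out they ranged from 393 to 602 higher and from 1090 to 1366 lower, and 5M against 4M stayed at 0. Over 151 named genes and all alternatives but dimmer probe sets, 4289 of 4368 values kept direction and side of the threshold, 55 no longer passed, 20 passed newly, and 4 changed sign, all of Mmp7, which sits at the floor: 0.00082 with median centring, 0.0063 against 4M alone, and 0.0040 both with spike-in glands only and with the spike-in block (both chosen after seeing the data, like the settings by B cell and muscle signal). In the methods' t-test 19 of the 151 no longer passed, and fewer list members did: 3 of 14 p53 targets, 4 of 17 basement membrane, 1 of 7 pericyte, 1 of 15 immediate early, 3 of 16 stress and defence, 5 of 22 chemokine, 5 of 12 EGF receptor family and 7 of 20 luminal genes (6, 8, 3, 5, 6, 9, 9 and 11 in limma). In that test 12 of 18 adipocyte, 8 of 14 fatty acid synthesis, 11 of 24 fibroblast and 14 of 16 endothelial genes passed. All 35 mitosis and 29 replication genes did too. Over all 45037 probe sets 3255 passed higher and 3278 lower in that test, against 6478 and 4868 in limma. Of 1092 list medians 54 moved by more than the SD among tumours. Same-numbered samples deviated together (correlation over 0.1) in 9 of 15 pairs, with a range of -0.40 to 0.22, and 4 of 15 arrays correlated best with their own number, so the numbers were not taken as pairs. With the replicate number as a block 448 were called higher and 1199 lower, Wap no longer passed (adjusted p = 0.0552), Mmp3 did (0.0239), and no other named gene changed in direction or in whether it passed.

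Of the dimmer probe sets, 97 kept direction and side of the threshold, 46 (of 36 genes) did not pass where the brightest did, and 3 passed where it did not (1 of Csn3 and 2 of Ighm). Dimmer probe sets of 17 genes had the opposite sign and none of these passed: Col12a1 -0.021 and -0.033, Inhba -0.012, Col1a2 0.64 and 0.35, Top2a -0.012, Foxm1 -0.010, Exo1 -0.028, Tyms -0.0013 and -0.010, Mcm10 -0.030, Sesn1 0.14, Trp63 0.0023, Prrx1 0.039, Lif -0.0079, Egfr 0.10, Car12 -0.012, Pdk1 0.13, Ighm 0.0029 and Actb -0.18. Probe sets near the floor limit the size of fold changes.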
